A study of Homo sapiens with 6 samples.

Results

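The CDK inhibitor genes and CDK6 were examined in RNA of SW872 cells with and without Apatinib. The 9 genes were chosen by symbol and are the CIP/KIP inhibitor genes CDKN1A, CDKN1B and CDKN1C, the INK4 inhibitor genes CDKN2A, CDKN2B, CDKN2C and CDKN2D, the phosphatase gene CDKN3, and CDK6, which encodes a kinase that INK4 proteins bind. They are 9 of the 57773 genes in the deposited counts table, and all 9 had enough counts to be tested. SW872 is an established human liposarcoma cell line. The Apatinib group had 3 replicates treated with 18 μM Apatinib, a tyrosine kinase inhibitor of VEGFR-2, for 24 h. The control group had 3 replicates of the same line without Apatinib, and the labels name no vehicle. Both groups were grown in RPMI-1640 with fetal bovine serum, and the study's methods call the replicates of each condition biological. A single cell line was sequenced, at a single dose and time, so the values describe SW872 under these conditions.

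Cyclin-dependent kinases (CDKs) carry cells through the cell cycle when a cyclin is bound to them. INK4 proteins bind CDK4 and CDK6 and keep D-type cyclins away from them, whereas CIP/KIP proteins bind complexes of a cyclin and a CDK, with CDK2 complexes as their best known targets. Active CDK4, CDK6 and CDK2 phosphorylate the RB protein, which releases E2F factors and lets genes of DNA replication be transcribed. Loss of INK4 genes and gain of CDK4 are well known in liposarcoma.

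The total counts per replicate ranged from 17043314 to 22067558. Controls 1 and 2 lay closer to each other than any other replicates, with a chi-square of 2.27 per gene where sampling noise alone gives about 1, against 18.2 to 44.5 in the other pairs within a group. Values without either control are therefore given below. Mitochondrial genes took 5.16% to 5.69% of the counts in the Apatinib group and 4.47% to 5.11% in the control group. The summed FPKM (fragments scaled to transcript length and library size) of 43 S phase genes was 596 to 923 in the Apatinib group and 1184 to 1273 in the control group, and Apatinib 2 had the lowest mean level of both phase lists. The mesenchymal marker VIM was at an FPKM of 881 to 1263 and the adipocyte regulator PPARG at 19.7 to 27.1, and of the markers of mature fat cells FABP4 and ADIPOQ had 0 counts in all 6 replicates, LEP 0 to 2 and PLIN1 14 to 30. None of the 4 epithelial and 4 immune markers had enough counts to be tested, and PTPRC, a marker of all leukocytes, had 0 counts throughout. The immune markers' summed FPKM was 6.90 to 11.9 in the Apatinib group and 1.87 to 3.39 in the control group, which came mainly from CD68, a gene with 0 or 1 counts in the counts table. The endothelial markers summed to an FPKM of 0.517 or less, and both tested ones were DEGs by edgeR in opposite directions, CDH5 at -1.22 (FDR 0.0242) and VWF at 1.52 (FDR 0.0386), with 56 counts or fewer per replicate.

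The stretches before the transcription start are shown for the CIP/KIP genes CDKN1A and CDKN1B and for CDKN3 and CDK6, since 3 of these 4 genes passed the test and CDKN1B did not. They come from RefSeq (GRCh38.p14), which listed 12 starts for 8 of the 9 genes. CDKN1C was not among them. Each shows the 250 bases before the start, 5′ to 3′ on the gene's strand, with capitals for matches to searched motifs. CDKN1A lies on the plus strand at chr6:36678464-36678713, CDKN1B on the plus strand at chr12:12717118-12717367, CDKN3 on the plus strand at chr14:54396757-54397006, and the first of the 2 CDK6 starts on the minus strand at chr7:92836574-92836823.
CDKN1A: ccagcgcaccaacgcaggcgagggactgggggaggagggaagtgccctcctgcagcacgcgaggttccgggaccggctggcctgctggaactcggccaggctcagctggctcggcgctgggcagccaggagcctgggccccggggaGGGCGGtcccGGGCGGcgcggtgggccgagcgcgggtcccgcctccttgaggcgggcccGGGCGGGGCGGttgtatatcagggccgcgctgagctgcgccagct
CDKN1B: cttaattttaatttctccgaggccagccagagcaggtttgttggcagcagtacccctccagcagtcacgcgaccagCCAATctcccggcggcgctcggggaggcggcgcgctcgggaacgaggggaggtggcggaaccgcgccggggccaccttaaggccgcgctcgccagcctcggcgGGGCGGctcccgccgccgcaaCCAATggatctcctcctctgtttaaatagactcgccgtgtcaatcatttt
CDKN3: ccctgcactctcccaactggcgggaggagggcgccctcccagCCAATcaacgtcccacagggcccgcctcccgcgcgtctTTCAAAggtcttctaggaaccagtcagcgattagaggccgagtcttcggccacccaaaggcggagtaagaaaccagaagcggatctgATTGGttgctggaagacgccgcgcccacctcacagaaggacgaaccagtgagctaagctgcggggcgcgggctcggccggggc
CDK6: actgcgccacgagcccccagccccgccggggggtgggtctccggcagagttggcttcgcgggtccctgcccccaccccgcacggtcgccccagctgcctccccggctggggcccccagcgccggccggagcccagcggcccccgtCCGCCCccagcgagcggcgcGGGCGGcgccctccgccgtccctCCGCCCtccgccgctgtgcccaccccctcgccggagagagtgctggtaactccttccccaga
The motifs were searched on both strands, so a match on the other strand appears as its complement. CDKN1A held 4 matches to the GC box GGGCGG, the letters bound by SP factors, at 104, 94, 45 and 40 bases before the start, of which the last pair overlap. CDK6 held 3 GC boxes, at 105, 85 and 62 bases. CDKN1B held 1 GC box at 71 bases and 2 CCAAT boxes at 174 and 50 bases. CDKN3 held no GC box. It held CCAAT boxes at 208 and 83 bases and, at 170 bases, TTTGAA, the letters of the cell cycle homology region (CHR) that the DREAM complex binds in cell cycle genes. Among the 8 genes with a window, CDKN3 was the only member with that motif, and CDKN2D was the only member with the E2F-like motif TTTNNCGC, at 216 bases. Among 35114 windows of the same length in the table, 42.6% held the GC box, 32.0% the CCAAT box, 13.3% TTTGAA and 5.92% TTTNNCGC. The FOXO-like motif GTAAACA (2.98% of windows) and TATAAA (10.7%) had no match in the 12 windows. The GC content of the printed stretches was 76.4% for CDKN1A, 64.4% for CDKN1B, 64.4% for CDKN3 and 80.0% for CDK6.

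Of the 9 genes, 4 were differentially expressed genes (DEGs), which means a false discovery rate (FDR) below 0.05 and a log2 fold change beyond 0.5 in either direction by edgeR's quasi-likelihood F test. Over all 16290 genes tested, 11.5% were DEGs. CDKN1C and CDKN1A were higher with Apatinib, a direction called for 5.97% of genes tested. CDK6 and CDKN3 were lower, a direction called for 5.48%. None of the 4 INK4 genes was a DEG. The count of 4 was 2 without Apatinib 1 or Apatinib 2 and 1 without control 1 or control 2. Of all genes tested in each of these fits, 4.73%, 8.91%, 1.65% and 1.8% were DEGs, in that order. The Apatinib and control replicates did not overlap for 5 of the 9 genes, against 33.2% of all genes tested, and these were the 4 DEGs and CDKN2C. In RNA from whole cultures, fewer cells that express a gene and less of its RNA per cell cannot be told apart. Levels below are CPM, counts scaled to the library size with edgeR's TMM factors, and fold changes are Apatinib against control.

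**Figure D1:**
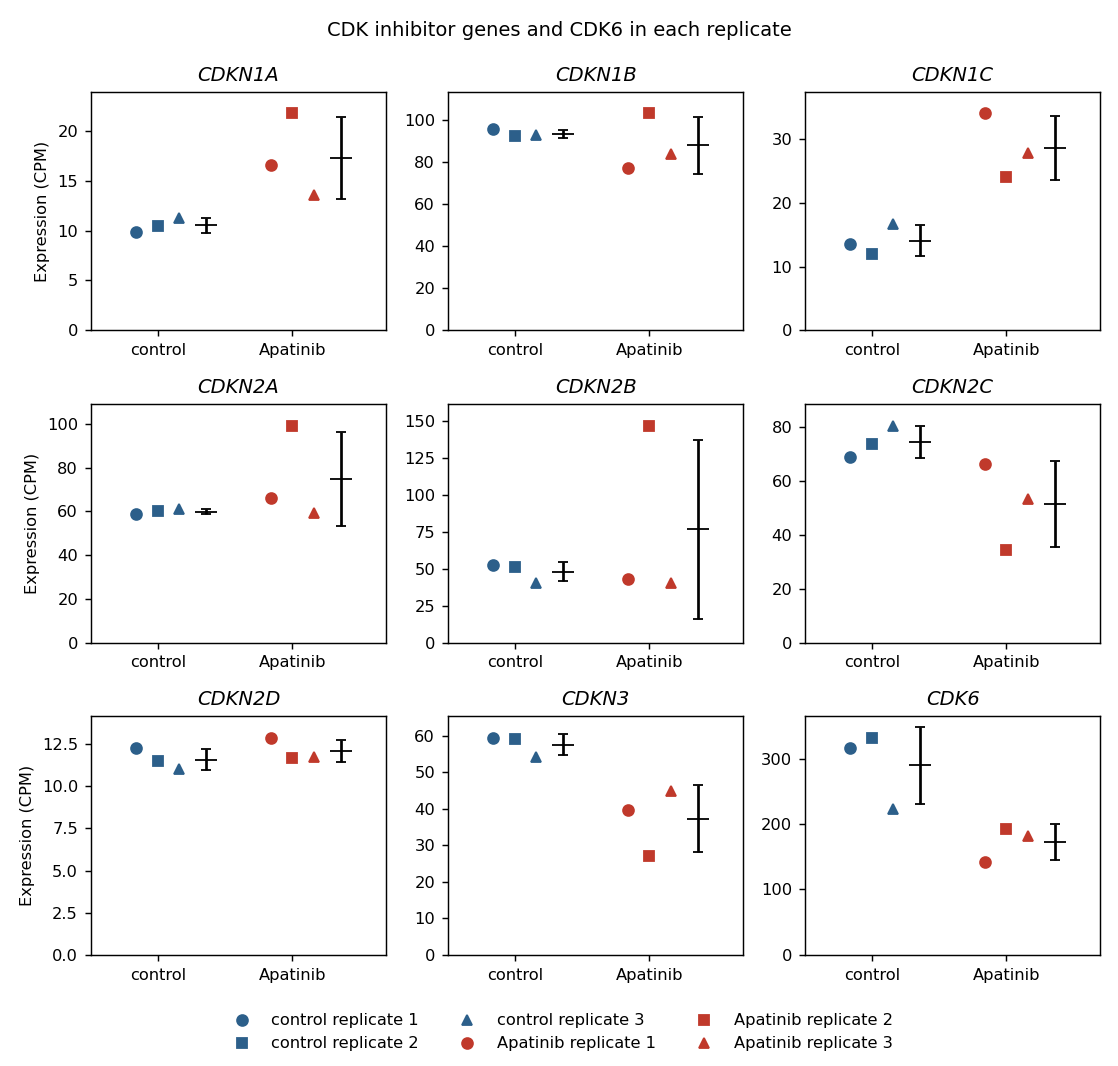
Expression (CPM, linear axes from 0) of the 9 genes in each control (blue) and Apatinib (red) replicate, with the mean and SD of each group in black (n = 3). The groups separated for CDKN1A, CDKN1C, CDKN2C, CDKN3 and CDK6, and Apatinib 2 lay apart at 147 CPM for CDKN2B.

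Among the CIP/KIP genes, CDKN1C and CDKN1A rose with Apatinib, and CDKN1B did not pass the test. CDKN1C (ENSG00000129757, chromosome 11) encodes p57KIP2, an inhibitor that is expressed from the maternal copy of the gene and is known for holding back growth in the embryo. Values of 34.1, 24.1 and 27.8 CPM were measured in the Apatinib replicates, in order, and 13.6, 11.9 and 16.8 CPM in the controls. Every Apatinib replicate was above every control, and Apatinib 1 was the highest. The mean was 28.7 ± 5.05 CPM (SD, n = 3) with Apatinib and 14.1 ± 2.45 CPM (SD, n = 3) in the controls, a 2.03-fold difference of the means. The log2 fold change was 1.02 (SE 0.176, 95% confidence interval 0.64 to 1.40), with an FDR of 0.00776 by edgeR, and CDKN1C ranked 207 by p among all genes tested. It remained a DEG when any single replicate was left out, with log2 fold changes from 0.88 to 1.17 and FDRs from 0.00168 to 0.0469. The counts behind these values ran from 217 to 586 per replicate.

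CDKN1A (ENSG00000124762, chromosome 6) encodes p21, an inhibitor of CDK2 complexes known for halting cells before S phase. In order of replicate number, it stood at 16.5, 21.7 and 13.6 CPM with Apatinib and 9.81, 10.4 and 11.3 CPM without. All Apatinib replicates lay above all controls, and Apatinib 3 was the nearest to them. The means were 17.3 ± 4.13 CPM (SD, n = 3) and 10.5 ± 0.730 CPM (SD, n = 3), a 1.64-fold difference. On the log2 scale the difference was 0.72 (SE 0.185, 95% confidence interval 0.31 to 1.12; edgeR FDR 0.0308). The FDR was above 0.05 without Apatinib 1 (0.0620), Apatinib 2 (0.0582), control 1 (0.134) or control 2 (0.119), while the log2 fold change stayed between 0.52 and 0.87. A noncoding gene, DINOL, overlaps CDKN1A on the opposite strand in GENCODE 29 and is not among the genes of the counts table. Whether strand was used in counting is not given in the sources used here.

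CDKN1B (ENSG00000111276, chromosome 12) encodes p27KIP1, which binds CDK2 complexes in resting cells and is controlled largely through breakdown of the protein. The Apatinib replicates, in order of their number, stood at 77.4, 103 and 83.9 CPM and the controls at 95.7, 92.3 and 92.8 CPM. The controls lay inside the range of the Apatinib replicates, of which Apatinib 2 was above and the others below every control. The means were 88.2 ± 13.5 CPM (SD, n = 3) and 93.6 ± 1.83 CPM (SD, n = 3). Its log2 fold change was -0.09 (SE 0.131), with a 95% confidence interval from -0.37 to 0.20 (edgeR FDR 0.699). Without Apatinib 1 the value was 0.0027 (FDR 0.994), within FDRs of 0.227 to 0.994 over the replicates left out in turn.

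CDKN1B supplied most of the CIP/KIP transcript per length in every replicate, and its share was smaller in the Apatinib group. It made up 52.4%, 62.2% and 58.5% of the summed CIP/KIP FPKM in the Apatinib replicates, in order, and 72.9%, 75.1% and 71.1% in the controls. The shares did not overlap between the groups. The summed CIP/KIP FPKM was 36.8, 44.8 and 37.6 in the Apatinib replicates, in order, and 34.9, 30.9 and 32.9 in the controls. An exact permutation test of 3 against 3 replicates cannot give a p below 0.1, so shares and sums are given without a test.

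**Figure D2:**
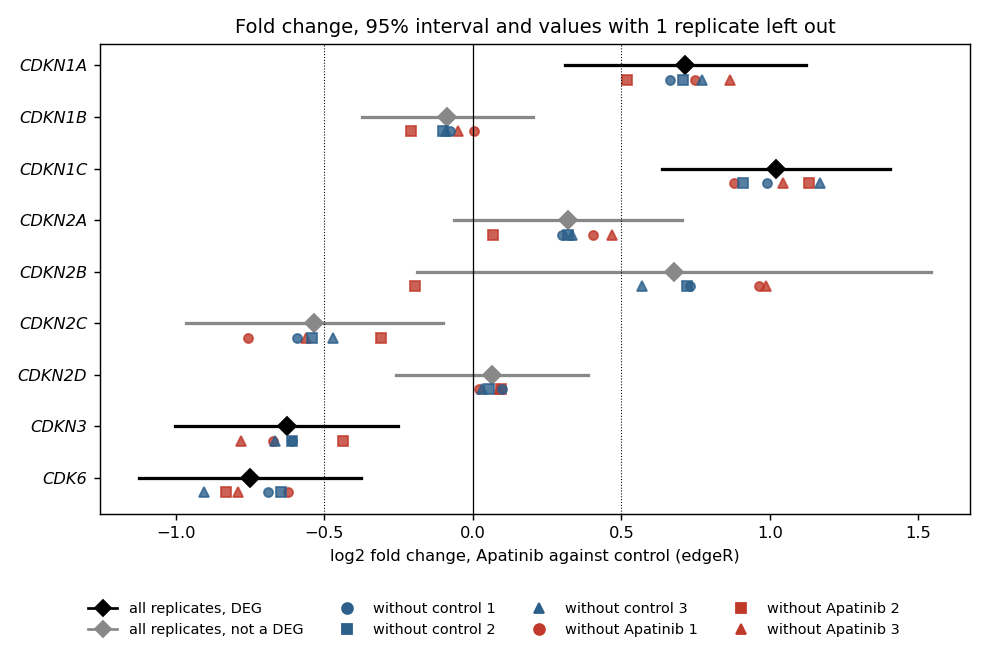
The log2 fold change of each gene, Apatinib against control, by edgeR (diamonds, with 95% confidence intervals; black for DEGs and grey for other genes), above the values with 1 replicate left out (small marks). Dotted lines mark the log2 limit of 0.5 in either direction, and the CDKN2B value crossed 0 without Apatinib 2.

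No INK4 gene passed the test, and the fold change was below 0 for CDKN2C and above 0 for the other 3 genes. CDKN2C (ENSG00000123080, chromosome 1) encodes p18INK4c, an inhibitor that acts in the late steps of differentiation of several tissues. Values of 66.3, 34.4 and 53.5 CPM were measured in the Apatinib replicates, in order, and 68.9, 73.8 and 80.5 CPM in the controls. No Apatinib replicate reached a control, although Apatinib 1 and control 1 were close, and Apatinib 2 was the lowest. The means were 51.4 ± 16.04 CPM (SD, n = 3) and 74.4 ± 5.83 CPM (SD, n = 3). This gave a log2 fold change of -0.53 (SE 0.198, 95% confidence interval -0.97 to -0.10; edgeR FDR 0.0947), which missed the FDR limit. Without Apatinib 1 it passed, at -0.76 (FDR 0.0443), and without Apatinib 2 it was -0.31, the values without other replicates lying between these and all FDRs between 0.0443 and 0.220. With the replicate number as a block in edgeR the FDR was 0.0221, although the numbers did not pair the replicates.

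CDKN2A (ENSG00000147889, chromosome 9) encodes both p16INK4a and, from another first exon, p14ARF, which binds MDM2. The counts are per gene, so the 2 products cannot be separated. In order of replicate number, it stood at 66.3, 99.2 and 59.1 CPM with Apatinib and 58.6, 60.2 and 61.0 CPM without. Apatinib 2 was the highest by far, and Apatinib 3 lay among the controls. The means were 74.8 ± 21.4 CPM (SD, n = 3) and 59.9 ± 1.18 CPM (SD, n = 3). Apatinib differed from control by 0.32 on the log2 scale (SE 0.175, 95% confidence interval -0.06 to 0.70; edgeR FDR 0.241). It was 0.07 without Apatinib 2 (FDR 0.712, the highest over the replicates left out, where the lowest was 0.0999). CDKN2B-AS1, an antisense gene that overlaps CDKN2A, had 41 to 48 counts in the Apatinib group and 55 to 69 in the control group.

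CDKN2B (ENSG00000147883, chromosome 9) lies beside CDKN2A and encodes p15INK4b, an inhibitor known for its induction by TGF-beta. The Apatinib replicates, in order of their number, stood at 43.2, 147 and 40.3 CPM and the controls at 52.2, 51.3 and 40.6 CPM. Apatinib 2 was 3.51 times the mean of the other Apatinib replicates, which lay close to the lowest control. It held 2598 counts, against 704 to 933 in the other 5 replicates. The means were 76.7 ± 60.6 CPM (SD, n = 3) and 48.0 ± 6.43 CPM (SD, n = 3). The log2 fold change of 0.68 (SE 0.395, 95% confidence interval -0.19 to 1.54; edgeR FDR 0.274) turned to -0.20 without Apatinib 2 (FDR 0.358), with FDRs from 0.115 to 0.397 over all replicates left out. The direction of CDKN2B therefore rested on that replicate. CDKN2A and CDKN2B are related in sequence, and how reads matching both were counted is not given in the sources used here.

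CDKN2D (ENSG00000129355, chromosome 19) encodes p19INK4d and varied least of the 9 genes in the Apatinib group. Values of 12.9, 11.7 and 11.7 CPM were measured in the Apatinib replicates, in order, and 12.2, 11.5 and 11.0 CPM in the controls. The groups overlapped, and all 6 values lay between 11.0 and 12.9 CPM. The means were 12.1 ± 0.662 CPM (SD, n = 3) and 11.6 ± 0.626 CPM (SD, n = 3), and the difference on the log2 scale was 0.06 (SE 0.147, 95% confidence interval -0.26 to 0.39; edgeR FDR 0.809). The value kept its sign without any single replicate, between 0.02 and 0.10.

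CDKN3 fell with Apatinib. CDKN3 (ENSG00000100526, chromosome 14) encodes a phosphatase that removes the activating phosphate from CDK2 and CDK1, and its transcript is known to be high in dividing cells. In order of replicate number, it stood at 39.7, 27.1 and 45.0 CPM with Apatinib and 59.4, 59.2 and 54.2 CPM without. All Apatinib replicates lay below all controls, with Apatinib 2 the lowest. The means were 37.3 ± 9.20 CPM (SD, n = 3) and 57.6 ± 2.94 CPM (SD, n = 3), and the log2 fold change was -0.63 (SE 0.171, 95% confidence interval -1.002 to -0.25; edgeR FDR 0.0368). The FDR was above 0.05 without Apatinib 1 (0.0705), Apatinib 2 (0.0511), control 1 (0.135) or control 2 (0.136). Without Apatinib 2 the log2 fold change was -0.44, the nearest to 0, and without Apatinib 3 it was -0.78. CDKN3 moved beside the phase lists, whose part in its difference was not tested. Over all genes tested, 11.5% were DEGs, and 5.48% were DEGs that were lower. Of 43 S phase genes, 26 were DEGs, all lower, and the list's median was -0.70 on the log2 scale, led by CLSPN (-1.31, edgeR FDR 0.00361), E2F8 (-1.06, FDR 0.00487) and CENPU (-1.13, FDR 0.00646). Of 54 G2/M genes, 30 were DEGs, all lower, with a median of -0.61, led by NDC80 (-1.08, FDR 0.00361), ECT2 (-1.17, FDR 0.00718) and NUF2 (-1.15, FDR 0.00751). Without control 1 the counts were 6 and 8, without control 2 they were 8 and 8, and the G2/M count was 18 without Apatinib 1 and 19 without Apatinib 2. Of all genes tested in each of these fits, 1.65%, 1.8%, 4.73% and 8.91% were DEGs, in that order.

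CDK6 fell as well, while CDK4, the other kinase that INK4 proteins bind, did not pass the test. CDK6 (ENSG00000105810, chromosome 7) encodes a partner of D-type cyclins. The Apatinib replicates, in order of their number, stood at 142, 193 and 182 CPM and the controls at 315, 332 and 222 CPM. The groups did not overlap, but control 3 was 0.687 times the mean of controls 1 and 2 and lay nearest to the Apatinib group. The means were 172 ± 27.1 CPM (SD, n = 3) and 289.8 ± 58.9 CPM (SD, n = 3). The log2 fold change was -0.75 (SE 0.170, 95% confidence interval -1.12 to -0.38; edgeR FDR 0.0198), the largest fall among the 9 genes in the fit of all replicates. CDK6 was no longer a DEG without Apatinib 1 (FDR 0.0604), control 1 (0.0957) or control 2 (0.102), at log2 fold changes of -0.62, -0.69 and -0.65. Without Apatinib 1, CDKN2C at -0.76 and CDKN3 at -0.67 fell further than CDK6. The overlapping opposite-strand gene AC002454.1 had 0 to 9 counts per replicate.

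CDK4 and CDK6 differed in their balance per length. The FPKM of CDK4 was 73.9, 63.2 and 64.5 in the Apatinib replicates, in order, and 58.9, 60.6 and 67.7 in the controls, and the groups overlapped. Its log2 fold change was 0.11 (95% confidence interval -0.20 to 0.42; edgeR FDR 0.639). The ratio of CDK4 to CDK6 FPKM was 8.40, 4.96 and 5.46 in the Apatinib replicates, in order, and 2.89, 2.90 and 5.03 in the controls. Control 3 lay above Apatinib 2, so the ratios overlapped. The summed FPKM of the 4 INK4 genes was 74.2, 112.8 and 69.0 with Apatinib and 77.3, 74.96 and 70.8 in the controls. Apatinib 2 was the only replicate in which the INK4 sum exceeded that of CDK4 and CDK6, which was 75.9 to 82.7 with Apatinib and 79.2 to 81.5 in the controls.

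**Figure D3:**
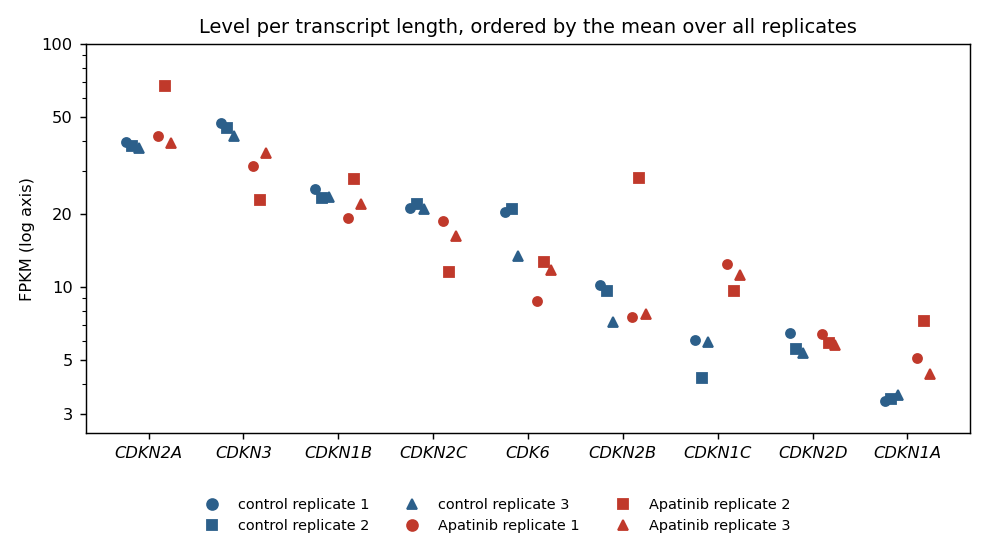
FPKM (log axis) of the 9 genes in each control (blue) and Apatinib (red) replicate, ordered by the mean over all 6 replicates. CDKN2A was the highest and CDKN1A the lowest by that mean, and control and Apatinib replicates separated for CDKN1A, CDKN1C, CDKN2C, CDKN3 and CDK6.

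The levels of different genes can be compared only per length, on the FPKM scale. Some genes differed between the 2 kinds of file, such as CD68, with 0 or 1 counts, and LIN37, with 2 to 12 counts at 3.96 to 5.53 FPKM, and whether both files used the same annotation is not given in the sources used here. Orders, shares and ratios on this scale rest on the authors' FPKM. All 9 genes were detected in every replicate, between 3.40 and 67.4 FPKM. The order of the means over the 6 replicates was CDKN2A (43.8), CDKN3 (37.4), CDKN1B (23.5), CDKN2C (18.4), CDK6 (14.7), CDKN2B (11.7), CDKN1C (8.25), CDKN2D (5.92) and CDKN1A (4.54). These means pool both groups, and the order differed between them. In the controls, CDKN1C and CDKN2D were the only neighbours whose replicates overlapped, although the lowest CDKN2C and the highest CDK6 replicate were both at 20.9 FPKM. With Apatinib, CDKN2A was separate from CDKN3, CDKN1B from CDKN2C and CDKN1C from CDKN2D, and the other neighbours overlapped. CDK6 lay above CDKN2B in the controls, whereas the mean of CDKN2B exceeded that of CDK6 with Apatinib through Apatinib 2 alone, at 27.97 FPKM for CDKN2B against 7.53 and 7.73 FPKM in Apatinib 1 and 3. CDKN3 was above CDKN2A in the controls (44.8 ± 2.82 against 38.2 ± 1.07 FPKM, SD, n = 3) and below it with Apatinib (29.9 ± 6.55 against 49.4 ± 15.6 FPKM, SD, n = 3), and this held in every replicate. CDKN1C, at 5.40 ± 1.00 FPKM (SD, n = 3), was close to CDKN2D at 5.80 ± 0.595 FPKM (SD, n = 3) in the controls. With Apatinib it reached 11.1 ± 1.38 FPKM (SD, n = 3), the level of CDK6 (11.1 ± 2.06 FPKM), which stood at 18.2 ± 4.15 FPKM in the controls. CDKN1A was the lowest of the 9 genes in the control group, at 3.49 ± 0.101 FPKM (SD, n = 3), and remained so by its mean with Apatinib, at 5.58 ± 1.49 FPKM (SD, n = 3).

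The spread between replicates differed from gene to gene. The coefficient of variation of CPM was 79.0% for CDKN2B, 31.2% for CDKN2C, 28.6% for CDKN2A, 24.7% for CDKN3 and 23.9% for CDKN1A in the Apatinib group. In the control group these were 13.4%, 7.83%, 1.97%, 5.11% and 6.94%. CDK6 stood at 15.7% with Apatinib and 20.3% in the controls. For CDKN1C and CDKN2D the groups were nearly equal, at 17.6% and 17.4%, and at 5.47% and 5.41%. Apatinib 2 was 1.58 times the mean of the other Apatinib replicates for CDKN2A and 1.44 times for CDKN1A, but 0.575 times for CDKN2C and 0.640 times for CDKN3. Apatinib 2 also had the lowest mean log2 CPM of the S phase list, at 5.04 against 5.52 and 5.64 in Apatinib 1 and 3 and 6.05 to 6.17 in the controls. The part of this in the spread of the members was not tested.

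The genes around the inhibitors were taken from lists by role. Over all genes tested the median log2 fold change was 0.0028 and 11.5% were DEGs, as above. Among the cyclins and CDKs that the inhibitors bind, 1 of 11 tested genes rose and 2 fell, with a median of -0.34, or -0.17 without Apatinib 2. CCND1, the cyclin D1 partner of CDK4 and CDK6, rose by 0.65 (edgeR FDR 0.00847), from 346 ± 9.66 CPM in the controls to 545 ± 41.5 CPM with Apatinib (SD, n = 3). CCNE2, a cyclin E partner of CDK2, fell by 1.72 on the log2 scale (FDR 0.00776), and CDK1, the mitotic kinase, fell by 1.02 (FDR 0.0140). Of 13 genes of the RB and E2F family, 4 fell and none rose, with a median of -0.27. They included RBL1, which encodes the RB relative p107 (-1.16, FDR 0.00304), the repressor gene E2F8 (-1.06, FDR 0.00487) and RB1 itself (-0.72, FDR 0.0145). Of 6 genes of the DREAM and MuvB complex, which binds the CHR letters seen before CDKN3, 1 fell, LIN9 (-0.91, FDR 0.0296), while MYBL2 was at -0.51 (FDR 0.0675) and LIN54 at -0.38 (FDR 0.146). Without control 1 the 3 lists held 1, 2 and 0 DEGs, and without control 2 also 1, 2 and 0. Of all genes tested in these fits, 1.65% and 1.8% were DEGs. The DREAM list held 0 without Apatinib 2.

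Some regulators of CDKN1A and of the CIP/KIP proteins were read as 2 lists, of which 10% and 7.14% were DEGs, against 11.5% over all genes tested. MDM2, a gene often gained in liposarcoma, was at -0.30 (edgeR FDR 0.157). Of 10 transcription factors known to act on CDKN1A, 1 fell, SP3 (-0.58, FDR 0.0312). SP3 binds GC boxes, which were printed for CDKN1A, CDKN1B and CDK6 and were held by 42.6% of all windows. The list's median was 0.25, or 0.06 without Apatinib 2. KLF4 (1.67, FDR 0.0573) and CEBPB (0.70, FDR 0.0623) did not pass, and both values rested largely on Apatinib 2. KLF4 was at 39.7 CPM there, against 8.32 and 9.62 CPM in Apatinib 1 and 3 and 3.62 to 8.31 CPM in the controls. CEBPB was at 285 CPM there, against 191 and 127 CPM in Apatinib 1 and 3 and 119.5 to 131 CPM in the controls. That list held 0 DEGs without control 1 or control 2 and 3 without Apatinib 3. Of all genes tested in these fits, 1.65%, 1.8% and 12.1% were DEGs, in that order. Of 14 FOXO factors and genes of CIP/KIP protein breakdown, 1 fell, with a median of -0.11, or -0.05 without Apatinib 2 and -0.06 without control 3. It was DTL (-0.76, FDR 0.00979), which directs p21 to a ubiquitin ligase, and the list held 0 DEGs without control 1. FOXO4 was at 0.44 (FDR 0.120), SKP2, which targets p27 for breakdown, at -0.56 (FDR 0.145) and its partner CKS1B at -0.05 (FDR 0.861). SKP2 was lowest in Apatinib 2, at 54.9 CPM, against 109.8 and 134 CPM in Apatinib 1 and 3 and 141 to 151 CPM in the controls.

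Genes known to act on the INK4 genes were read in the same way. In the TGF-beta arm, known for acting on CDKN2B, the ligand gene TGFB2 was at 0.39 (edgeR FDR 0.0696) and the receptor gene TGFBR1 at -0.45 (FDR 0.0717), and neither passed the test. Of 13 Polycomb factors, which silence the INK4 locus in many cells, 2 fell and none rose. DEGs made up 15.4% of this list and 11.5% of all genes tested. The list's median was 0.03, which ranged from 0.02 without Apatinib 2 to 0.09 without control 2 and was 0.07 without Apatinib 3. The genes that fell were the methyltransferase gene EZH2 (-0.91, FDR 0.00485) and its partner SUZ12 (-0.68, FDR 0.0339), while CBX7 (0.48, FDR 0.0428) was under the log2 limit. This list held 1 DEG without Apatinib 1, control 1 or control 2. Of all genes tested in these fits, 4.73%, 1.65% and 1.8% were DEGs, in that order.

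None of the 6 tested neighbours of CDKN2A and CDKN2B on chromosome 9 was a DEG, against 11.5% of all genes tested. Their median was -0.27, or -0.09 without Apatinib 1 and -0.13 without control 1. It was above 0 in limma and under a correction for GC content, over the list's genes kept in those fits. FOCAD was at 0.29 (edgeR FDR 0.136), MTAP, an enzyme gene of methionine salvage, at -0.30 (FDR 0.180), KLHL9 at -0.28 (FDR 0.215) and CDKN2B-AS1 at -0.35 (FDR 0.349). Of 8 tested neighbours of CDKN1C on chromosome 11, a region of imprinted genes, 2 rose and 1 fell. DEGs made up 37.5% of this list, against 11.5% of all genes tested. It held 2 DEGs without Apatinib 1, Apatinib 3, control 1 or control 2, and 4 without control 3. With controls 1 and 2 summed and Apatinib 2 left out it held 0. The list's median was 0.26, or 0.15 without Apatinib 1 and 0.04 under the correction for GC content. SLC22A18, a transporter gene, rose by 0.83 (FDR 0.00640) and IGF2, a growth factor gene expressed from the paternal copy, by 0.74 (FDR 0.0396), whereas the noncoding gene H19 fell by 1.09 (FDR 0.00613). KCNQ1OT1, the noncoding RNA known for silencing CDKN1C on the paternal copy, was at -0.53 (95% confidence interval -1.08 to 0.03; FDR 0.186).

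**Figure D4:**
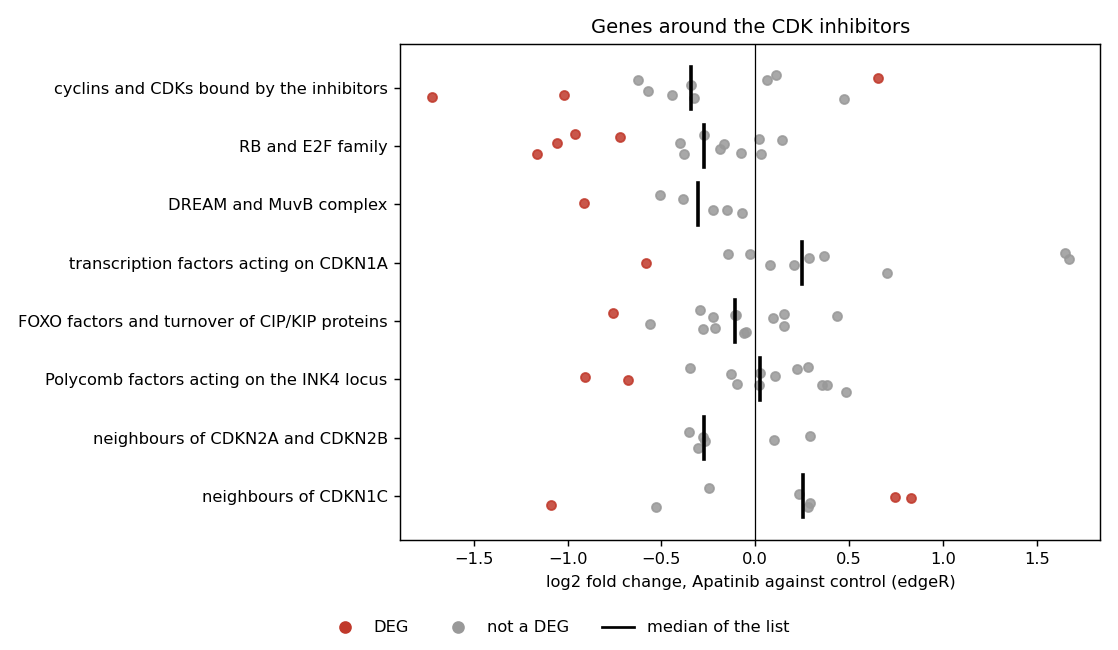
The log2 fold change, Apatinib against control, of each tested gene of 8 lists of genes around the inhibitors (red for DEGs, grey for other genes, black bars for the list medians). The medians lay between -0.34 for the cyclins and CDKs and 0.26 for the neighbours of CDKN1C, and KLF4 stood highest at 1.67, a value that rested largely on Apatinib 2.

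Genes whose pattern over the 6 replicates was most like that of each DEG were taken by Pearson r of log2 CPM among 14772 genes, as a description. The replicates share their group difference, and at least 816 genes exceeded an r of 0.9 for each member. For CDKN1C these were 1201 genes, with EPDR1 (0.999), PDLIM1 (0.999) and ACSS2 (0.998) at the top. CDKN1A had 979, led by COQ5 (0.998), IGF2BP2 (0.997) and UBE2E2 (0.997). CDKN3 had 816, led by UTP11L (0.999) and by MAD2L1 and CENPI (both 0.996), the last pair being genes of the spindle checkpoint and the centromere. CDK6 had 1460, led by ZNF300 (0.999), NOP58 (0.998) and ZHX1 (0.998).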

How the data were processed

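RNA of SW872 cells was sequenced on the Illumina NovaSeq platform as 3 Apatinib and 3 control replicates. The submitters' processing notes name CASAVA, STAR 2.7.1a and hg19, and the program that counted genes is not given in the sources used here. The authors deposited whole-number counts per gene, not normalized, and FPKM values of each replicate. In the FPKM file of Apatinib replicate 1, 1 further column headed as a control was left out. Groups follow the titles and the treatment label, although the treatment protocol of the controls also names Apatinib.

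The groups were compared by the quasi-likelihood F test of edgeR 4.0.16 in R 4.3.3 (filterByExpr, TMM), with Benjamini-Hochberg adjustment over 16290 genes. DEGs followed the study's limits, an FDR of 0.05 and a log2 fold change of 0.5. Log2 CPM used a prior count of 2. S phase and G2/M lists came from Seurat 5.3.0 and the other lists were written by hand. The members, lists and naming rule were chosen with earlier results of these data known. The rule named every member, the 3 genes with the smallest p on each list described, genes with a fixed link to a member (CDK4, MTAP, CDKN2B-AS1, KCNQ1OT1, MDM2, SKP2, CKS1B), and the 3 genes most like each called member among those with a mean CPM of at least 1. Some genes and lists under this rule are not reported here. Chromosomes of the members were read from RefSeq and overlaps from GENCODE 29, and no positions were converted between builds.

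Alternatives were RLE size factors, DESeq2 1.42.0, no filter beyond a total of 1 count, at least 10 counts in every replicate, the replicate number as a block, each replicate left out, controls 1 and 2 summed, limma 3.58.1 on log2 FPKM with a pseudocount of 1 or 0.1 (mean FPKM over 0.5), the FDR limit alone, and edgeR's glmTreat. A loess correction for GC content (span 0.3, known for 97.1% of genes tested) and the summed controls without Apatinib 2 were added after seeing the data. Each fitting step was tested on simulated data.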

Additional observations from a re-analysis of the deposited data

How the results depend on the processing

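Among the 16 alternatives that refit each gene's fold change against 0 at the same limits, CDKN1C was called under 15, CDK6 under 9, and CDKN1A and CDKN3 under 7 each, and none of the 4 changed direction. Under glmTreat none of the 9 genes was called. In simulated data glmTreat recovered 36 of 100 genes changed 2-fold, and the largest difference among the 9 genes was 2.03-fold, for CDKN1C. Its result therefore cannot tell changes of this size from none. Among the 16, CDKN1C was lost where controls 1 and 2 were summed and Apatinib 2 was left out together (1.07, FDR 0.0533). With controls 1 and 2 summed, the log2 fold changes that missed the FDR limit were 0.69 for CDKN1A, -0.61 for CDKN3 and -0.67 for CDK6. With Apatinib 2 left out as well they were 0.49, -0.42 and -0.75. In limma they were 0.53, -0.59 and -0.66 on log2(FPKM + 1), and 0.63, -0.60 and -0.70 on log2(FPKM + 0.1). Under the correction for GC content CDKN1A was at 0.53 and CDKN3 at -0.39, neither called, CDKN2D turned to -0.14, CDKN2A was at 0.13 and CDKN1B at -0.03. CDKN2C passed the limits in DESeq2 (-0.53), without a filter (-0.52), with the replicate block (-0.58) and under the GC correction (-0.63). CDKN2B passed without a filter (0.69, FDR 0.000231, within FDRs from 0.000231 to 0.651 over the 10 alternatives other than leaving out 1 replicate) and turned to -0.15 with the controls summed and Apatinib 2 left out. It was at 0.39 on log2(FPKM + 1), 0.40 on log2(FPKM + 0.1) and 0.41 with the replicate block, and was not called in these fits. The cause was not tested in these cases.

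With 1 replicate left out, the log2 fold change was between 0.52 and 0.87 for CDKN1A, -0.21 and 0.0027 for CDKN1B, -0.20 and 0.99 for CDKN2B, -0.76 and -0.31 for CDKN2C, -0.78 and -0.44 for CDKN3, and -0.91 and -0.62 for CDK6. The number of called members, 4 of 9 as reported, was between 1 (without control 1 or control 2) and 4, and 2 without Apatinib 1 or Apatinib 2. It was 1 with the controls summed, 1 in each limma fit, 0 with the controls summed and Apatinib 2 left out, and 0 by glmTreat, a stricter test against the fold limit. The 1866 DEGs became 275 (without control 1) to 2594 (without control 3), with 300 without control 2 and 795 without Apatinib 1, 292 with the controls summed, 796 and 810 in limma, 115 with Apatinib 2 also left out and 74 by glmTreat. DEGs that were higher made up 52.1%, against 70.9% with the controls summed, 69.8% and 71.4% in limma, 48.7% in DESeq2, 47.3% with the replicate block and 42.5% without control 3. The numbers of the replicates did not pair them (correlations of deviations -0.259, 0.0808 and -0.220), and the replicate block gave 2215 DEGs and changed no call among the 9 genes besides CDKN2C. Under the GC correction the median was 0.15 for the transcription factors acting on CDKN1A, 0.08 for the Polycomb factors and 0.04 for the neighbours of CDKN1C. The median of the neighbours of CDKN2A and CDKN2B turned to 0.10 and 0.13 in limma and to 0.10 under the GC correction. Each median was taken over the list's genes kept in that fit, which can differ between fits. Of the recomputed list counts, 79 moved by over 1.5 times and 129 did not.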
